A study of Mus musculus with 48 samples.

Results

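Integrin and laminin subunits are described here as the 37 transcript rows, of 24264 in the count table, whose symbols name an integrin alpha or beta subunit or a laminin alpha, beta, or gamma chain. They comprise 18 integrin alpha subunits, 8 integrin beta subunits, and 11 laminin alpha, beta, or gamma chains. The rule that picks the members uses the symbol alone and no expression value. RNA was taken from cells on the way from mouse embryonic fibroblasts (MEFs) to induced pluripotent stem cells (iPSCs), and the study asks whether 2 polycistronic reprogramming cassettes, MKOS and OKMS, lead through the same intermediates. There were 48 libraries from 20 conditions, with 3 libraries for each of the 8 sorted populations and 2 for each other condition.

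MKOS and OKMS are doxycycline-inducible transcripts that encode Klf4, Myc, Oct4, and Sox2 in the order of their letters, OKMS has a shorter Klf4, and each cassette was targeted together with CAG-driven rtTA into an intron of Sp3 in TNG embryonic stem cells (ESCs), which carry GFP in the Nanog locus. MKOS and OKMS MEFs were derived from chimeric embryos made with these ESCs, and wild-type (WT) MEFs, the parental TNG ESCs, the targeted TNG MKOS and TNG OKMS ESCs, and E14 ESCs completed the reference conditions. Transgenic MEFs were diluted in WT MEFs and kept with doxycycline and vitamin C, and the sorted populations date from day 10. The gate called 2 took CD44- ICAM1- cells and the gate called 3 took CD44- ICAM1+ cells, NG- or NG+ tells whether Nanog-GFP was on, and E-CAD+ or E-CAD- tells whether the cells had E-cadherin on their surface. The E-CAD+ gates were 2NG-, 3NG-, and 3NG+ and were taken for each cassette, whereas the E-CAD- gates, 2NG- and 3NG-, were taken for OKMS only. Established MKOS and OKMS iPSC clones were kept without doxycycline (-dox) or in 2i medium, and D6 is an iPSC line with a piggyBac copy of MKOS. In bulk RNA of this kind, fewer cells of a type and less RNA per cell cannot be told apart.

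Integrins are receptors made of an alpha and a beta subunit that tie the actin or keratin cytoskeleton to the extracellular matrix, and the pair decides which ligand is bound: Itga5 with Itgb1 binds fibronectin, Itgav pairs with several beta subunits and binds vitronectin and other RGD ligands, and Itga3 and Itga6 bind laminins. Laminins are trimers of an alpha, a beta, and a gamma chain that build the basement membrane. Lama1 and Lama5 with Lamb1 and Lamc1 form the laminins of the early embryo, Lama2 and Lama4 are chains of mesenchymal, muscle, and vessel matrix, and Lama3 and Lamb3 belong to the laminin under stratified epithelia, to which Itga6 with Itgb4 is attached in hemidesmosomes.

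The reads come from the 5′ end of each RNA, so the DNA before a RefSeq start is shown for 6 members. The main changes below are described with these members. From MEFs to ESCs, 4 fell (Itgb1, Itgav, Itga5, and Lamb1) and 2 rose (Lama5 and Itgb7). Each sequence is the 250 bases before that start in GRCm38.p6, written 5′ to 3′ on the strand of the gene. Matches to the GC box GGGCGG or its reverse complement are in capitals. The windows of Itgav and Itgb7 lie wholly inside the annotated genes (83722303 to 83806917 and 102215994 to 102233405), before an internal start. Which start gave the reads of Itgb7 was not tested.
Itgb1, chr8:128685404-128685653, forward strand: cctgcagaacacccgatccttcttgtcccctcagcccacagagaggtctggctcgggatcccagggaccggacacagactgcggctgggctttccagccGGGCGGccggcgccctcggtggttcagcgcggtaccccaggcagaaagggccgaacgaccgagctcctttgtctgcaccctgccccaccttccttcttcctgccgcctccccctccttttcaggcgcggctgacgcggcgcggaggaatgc
Itgav, chr2:83724147-83724396, forward strand: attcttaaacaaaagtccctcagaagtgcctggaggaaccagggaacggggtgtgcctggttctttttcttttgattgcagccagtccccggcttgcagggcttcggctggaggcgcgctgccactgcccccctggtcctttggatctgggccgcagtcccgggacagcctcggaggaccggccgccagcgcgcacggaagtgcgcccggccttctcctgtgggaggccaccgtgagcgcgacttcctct
Itga5, chr15:103366792-103367041, reverse strand: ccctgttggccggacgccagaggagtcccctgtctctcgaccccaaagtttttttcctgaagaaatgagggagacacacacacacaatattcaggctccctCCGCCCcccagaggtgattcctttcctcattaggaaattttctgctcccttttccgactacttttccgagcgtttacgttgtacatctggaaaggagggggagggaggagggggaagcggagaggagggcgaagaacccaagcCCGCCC
Lamb1, chr12:31265043-31265292, forward strand: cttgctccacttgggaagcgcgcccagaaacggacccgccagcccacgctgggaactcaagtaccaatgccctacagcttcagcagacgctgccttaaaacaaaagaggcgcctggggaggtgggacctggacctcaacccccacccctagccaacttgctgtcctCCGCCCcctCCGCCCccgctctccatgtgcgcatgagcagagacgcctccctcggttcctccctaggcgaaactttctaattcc
Lama5, chr2:180225860-180226109, reverse strand: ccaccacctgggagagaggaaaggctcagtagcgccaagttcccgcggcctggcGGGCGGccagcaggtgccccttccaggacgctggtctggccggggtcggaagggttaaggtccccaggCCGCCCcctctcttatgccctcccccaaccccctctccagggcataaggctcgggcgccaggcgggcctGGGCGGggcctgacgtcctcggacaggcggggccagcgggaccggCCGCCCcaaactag
Itgb7, chr15:102231936-102232185, reverse strand: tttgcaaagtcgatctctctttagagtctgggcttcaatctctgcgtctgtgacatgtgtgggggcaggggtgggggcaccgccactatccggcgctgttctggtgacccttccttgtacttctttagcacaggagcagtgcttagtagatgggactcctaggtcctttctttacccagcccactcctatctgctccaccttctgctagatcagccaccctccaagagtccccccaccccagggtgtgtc

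Lama5 had 4 GC boxes in this window, Itga5 and Lamb1 had 2 each, Itgb1 had 1, and Itgav and Itgb7 had none. G and C made up 72.4% of the bases of Lama5, 68.0% of Itgb1, 64.4% of Itgav, 62.0% of Lamb1, 56.0% of Itgb7, and 55.6% of Itga5, where the median over 32851 windows of all genes in the RefSeq table was 52.4%. Itgb7 had 5 CpG dinucleotides, Itga5 had 11, and the other members had 14 to 21, with a median of 6 over all windows. None of the 6 windows held the TATA box TATAAA, found in 12.4% of all windows on either strand, the E-box CACGTG, found in 6.02%, or the AP-1 motif TGANTCA, found in 6.75%. The motif CACCC or its complement, which stood in 52.0% of all windows, was found 4 times in Itgb7, 2 times in Itgb1, and 1 time each in Itgav and Lamb1. The GC box was present in 32.7% of all windows and in 9 of the 26 windows that the table holds for 23 of the members. These matches describe letters only. The table gives no window for Itga6 (chromosome 2, gene from 71786886 to 71858427), Itgb4 (chromosome 11, 115974725 to 116008412), and Lama1 (chromosome 17, 67697127 to 67822645).

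Values are CPM, the count of a transcript scaled by the reads of its library on all transcripts. Each library had 1429717 to 14174725 such reads, so that 3 reads amounted to 0.212 to 2.10 CPM, a floor that covers counting error only. Fibroblast markers summed to 3633 to 5808 CPM in the MEF conditions and to 8.29 to 24.8 CPM in ESCs and iPSCs, and pluripotency markers to 13610 to 22910 CPM in ESCs and iPSCs and to 9.74 to 30.9 CPM in MEFs, as the labels say. Of the sorted libraries, OKMS E-CAD+ 2NG- replicate 3 and OKMS E-CAD+ 3NG- replicate 3 stood apart from their group: Cd44 was 12.5 and 9.18 CPM against 36.8 to 135 CPM in the other libraries of these populations, and pluripotency markers summed to 3333 and 5627 CPM against 868 to 2428 CPM. Both belong to 7 sorted libraries that averages published by the study leave out, and results that changed without these 7 libraries are given with that value. By Cd44, MKOS 3NG+ replicate 1 (24.6 CPM against 2.77 and 5.34 CPM) and OKMS 3NG+ replicate 2 (28.0 CPM against 2.90 and 1.72 CPM) also stood apart.

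Of the 37 members, 36 had at least 1 read. Itgad had none in any library, Itgax had a read in 1 library, and Lamc3 had reads in 9 libraries and at most 1.65 CPM; these 3 fell under the filter on low counts and 34 members were tested. Of these, 28 passed an FDR of 0.05 in at least 1 of 18 comparisons with edgeR's quasi-likelihood test, 23 of which also reached a mean of 5 CPM in some condition. Lamc1, Itga9, Lamb3, Itgb6, Itgal, and Itgam were not called in any. Lamc1, the gamma chain shared by most laminins, was read in all 48 libraries at 30.8 to 127 CPM and its log2 change from MEFs to ESCs was 0.27 (SE 0.18, FDR 0.19). The share of reads with a unique position had a median of 99.99% over the members, and the lowest shares were 87.7% for Lama2 and 94.4% for Itga6.

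**Figure D1:**
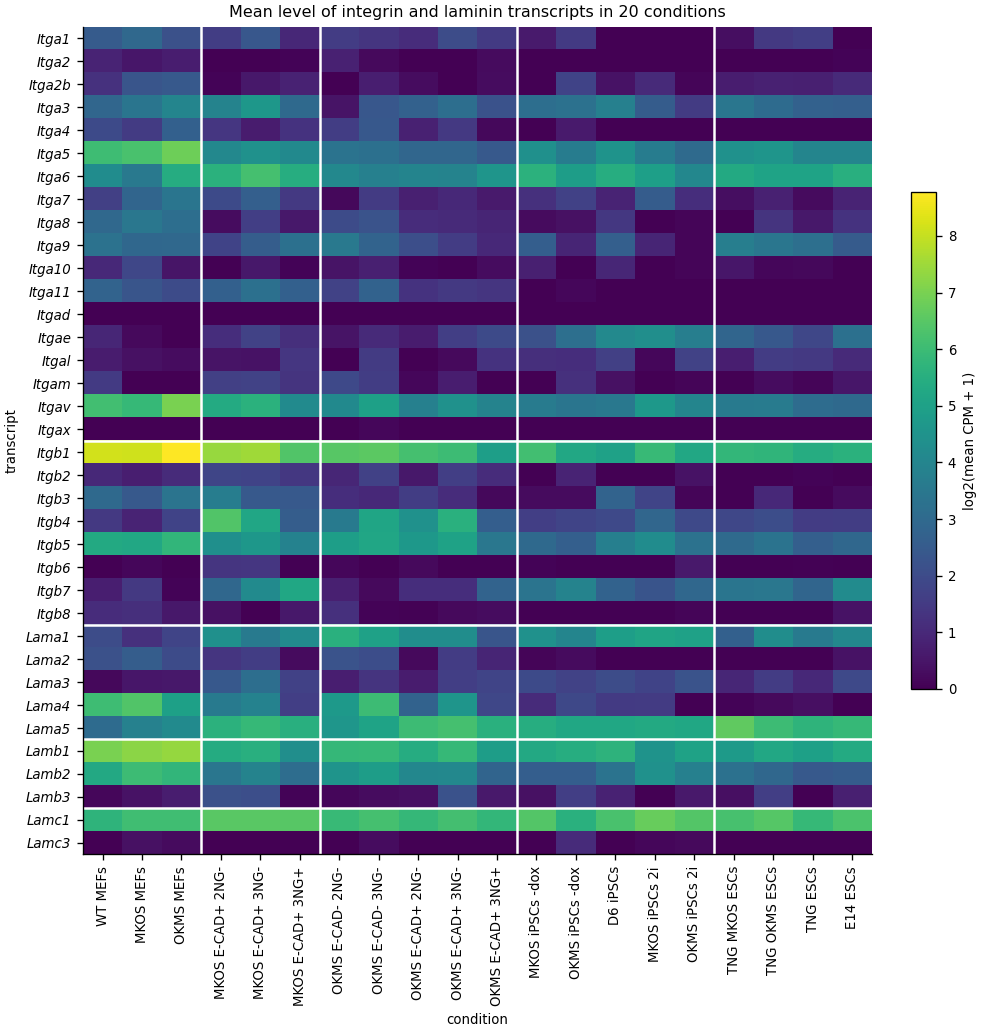
Mean level of 36 members (rows, grouped as integrin alpha, integrin beta, laminin alpha, beta, and gamma) in the 20 conditions (columns, grouped as MEFs, MKOS sorted cells, OKMS sorted cells, iPSCs, and ESCs); color is log2 of the mean CPM plus 1 over 2 or 3 libraries. Itgb1 is the brightest row, with a mean of 434.5 CPM in OKMS MEFs, Lamc1 is present in every column, and Itgb4 is bright in the sorted cells, where it reaches 82.1 CPM.

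MEFs and ESCs, the start and the reference end of reprogramming, differed in 25 of the 34 members. Lama1, Lama3, Lama5, Itga6, Itgae, and Itgb7 were higher in ESCs, and 19 members were lower, among them the mesenchymal chains Lama2 and Lama4, the main beta subunit Itgb1, and the fibronectin and vitronectin receptors Itga5 and Itgav. The median log2 change of the members was -2.15, that of all transcripts was 0. Of the members 17.6% rose and 55.9% fell, whereas 29.6% of the 15630 transcripts tested rose and 30.4% fell.

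Lama4 was 21.0 to 86.3 CPM (median 65.2) over the 6 MEF libraries and 0 to 0.591 CPM over the 8 ESC libraries, where 5 had no read, and fell by 9.12 on the log2 scale (SE 0.67, FDR 8.87e-15). Its relative Lama2 was 0.371 to 5.73 CPM (median 4.95) in MEFs and had reads in 1 of 8 ESC libraries, at 0.664 CPM, above the lowest MEF library (FDR 3.93e-06). Lama5 went the other way, from 6.94 to 17.8 CPM (median 13.4) in MEFs to 45.9 to 125 CPM (median 58.3) in ESCs, a log2 change of 2.47 (SE 0.24, FDR 9.50e-12), and no ESC library overlapped the MEFs. Lama1, the first laminin alpha chain of the embryo, rose from 0.886 to 3.89 CPM (median 2.30) to 4.89 to 19.5 CPM (median 15.3), a log2 change of 2.40 (SE 0.45, FDR 1.54e-05). Lama3 was at most 0.928 CPM in MEFs and 0 to 4.11 CPM (median 1.64) in ESCs (FDR 0.029); this call was lost without any 1 of 6 of the 14 libraries (FDR 0.052 to 1.00), namely E14 ESCs 1, TNG ESCs 2, TNG MKOS ESCs 1, MKOS MEFs 1, OKMS MEFs 2, and WT MEFs 2.

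Of the 3 beta chains, Lamb1 and Lamb2 fell, and Lamb3, at most 0.717 CPM in any MEF library and 4.02 CPM in any ESC library, did not pass (log2 -0.16, FDR 0.64). Lamb1 was 115 to 171 CPM (median 149) in MEFs and 18.8 to 45.8 CPM (median 32.2) in ESCs, a log2 change of -2.13 (SE 0.17, FDR 5.89e-14). Lamb2, a beta chain of muscle and vessel laminins, was 36.7 to 70.2 CPM (median 52.9) in MEFs and 2.73 to 10.9 CPM (median 6.35) in ESCs (log2 -3.06, SE 0.34, FDR 4.15e-10), and for both the groups did not overlap.

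Among the integrins, Itgb1, which pairs with most of the alpha subunits listed here, was 228 to 517 CPM (median 319) in MEFs and 40.6 to 66.0 CPM (median 43.7) in ESCs, and fell by 2.71 on the log2 scale (SE 0.21, FDR 9.25e-15). Itgav was 52.4 to 162 CPM (median 72.5) in MEFs and 6.32 to 14.6 CPM (median 8.16) in ESCs (log2 -3.11, SE 0.29, FDR 5.15e-12), and its partner Itgb5 was 26.2 to 60.5 CPM (median 47.4) and 3.74 to 9.84 CPM (median 7.21), respectively (log2 -2.56, SE 0.29, FDR 6.99e-10). The fibronectin receptor subunit Itga5 was 55.3 to 125 CPM (median 81.2) in MEFs and 12.5 to 27.6 CPM (median 16.0) in ESCs (log2 -2.16, SE 0.29, FDR 2.04e-08). For these 4 genes every MEF library lay above every ESC library. Itgb3, another partner of Itgav, was 3.10 to 11.0 CPM (median 6.71) in MEFs and had reads in 3 of 8 ESC libraries, up to 2.01 CPM (FDR 1.20e-06).

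The collagen receptor subunits Itga1 and Itga11, the fibronectin and VCAM receptor subunit Itga4, the laminin receptor subunit Itga7, and Itga8, which binds nephronectin, fell as well. Itga11 was 2.04 to 7.17 CPM (median 4.21) in MEFs and had no read in the 8 ESC libraries, at least 99.3-fold lower against a floor of 3 reads over the group (FDR 6.57e-06). Itga4 was 0.371 to 10.5 CPM (median 2.57) in MEFs and likewise had no read in ESCs, at least 79.2-fold lower (FDR 5.65e-05). Neither was detected in ESCs, whereas both had reads in all 6 MEF libraries. Itga8 was 5.66 to 11.1 CPM (median 8.10) against 0 to 2.12 CPM (FDR 6.72e-05), Itga7 1.64 to 11.3 CPM (median 5.31) against 0 to 1.51 CPM (FDR 0.00043), and Itga1 2.01 to 7.75 CPM (median 5.05) against 0 to 3.48 CPM (FDR 0.00038), in MEFs and ESCs.

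Itga6, Itgb7, and Itgae were the integrins that rose. Itga6 was 6.86 to 43.6 CPM (median 18.1) in MEFs and 27.9 to 48.8 CPM (median 37.4) in ESCs, with OKMS MEFs inside the ESC range, and its log2 change was 0.92 (SE 0.24, FDR 0.0012). Itgb7, known from gut-homing lymphocytes, was at most 1.99 CPM in MEFs and 4.83 to 19.0 CPM (median 10.1) in ESCs (log2 4.39, SE 0.65, FDR 1.90e-07). Itgae, which pairs with Itgb7 to bind E-cadherin, was at most 1.28 CPM in MEFs and 1.75 to 10.1 CPM (median 5.31) in ESCs (log2 5.01, SE 0.98, FDR 2.91e-05). OKMS MEFs had no Itgae read, so the size of this log2 change is poorly determined. The means over conditions were 0.352 CPM in MEFs and 5.44 CPM in ESCs. Both subunits of this E-cadherin receptor thus had reads in all 8 ESC libraries, and haematopoietic markers summed to 27.9 to 43.8 CPM in the ESC conditions, against 19.0 to 278 CPM in the MEF conditions.

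On the MKOS route, the step from MKOS MEFs to E-CAD+ 2NG- cells raised 5 members, among them Itga6, Itgb4, Lama1, and Lama5, and lowered Lama4, Lamb1, Lamb2, Itga5, Itga8, and the low transcripts Itga2b and Itga10. These are 5 members up (14.7% of those tested, where 15.0% of all transcripts rose) and 7 down (20.6%, where 12.0% of all fell), with a median log2 change of -0.14 for the members and 0 for all transcripts. Among the members that rose are both subunits of the hemidesmosomal laminin receptor, Itga6 and Itgb4.

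Itgb4 was 1.43 and 0.222 CPM in the 2 libraries of MKOS MEFs and 85.1, 93.6, and 67.6 CPM in the 3 libraries of 2NG- cells, a log2 change of 6.33 (SE 1.34, FDR 0.00035). Itga6 was 6.86 and 14.6 CPM in MEFs and 65.0, 56.7, and 20.7 CPM in 2NG- cells (log2 2.15, SE 0.44, FDR 0.00020). For both genes the groups did not overlap, and replicate 3 was the lowest of the 2NG- libraries. Keratinocyte markers summed to 249.5, 130.0, and 15.4 CPM in the 3 2NG- libraries and to a mean of 1.89 CPM in MKOS MEFs; their part in these results was not tested.

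Lama3 and Lamb3, which belong to the laminin that this receptor binds, were low. Lama3 was 7.04, 4.72, and 1.35 CPM and Lamb3 was 5.10, 2.21, and 3.25 CPM in MKOS 2NG- cells, above both libraries of MKOS MEFs, which had at most 0.665 CPM of Lama3 and 0.717 CPM of Lamb3. Neither passed the test in this step. Itgb6, an epithelial partner of Itgav, was 2.65, 1.77, and 0.271 CPM in MKOS 2NG- cells, 1.01, 0.944, and 2.86 CPM in MKOS 3NG- cells, and at most 0.326 CPM in every OKMS sorted library.

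Both embryonic alpha chains were already raised in MKOS 2NG- cells. Lama1 was 1.74 and 0.886 CPM in MKOS MEFs and 16.9, 29.8, and 13.7 CPM in 2NG- cells (log2 3.77, SE 0.83, FDR 0.00056), and Lama5 was 11.7 and 15.1 CPM and 45.5, 44.7, and 55.0 CPM, respectively (log2 1.83, SE 0.40, FDR 0.00049). Lamb1 was 153 and 144 CPM in MEFs and 39.6, 42.5, and 41.1 CPM in 2NG- cells (log2 -1.90, SE 0.29, FDR 2.26e-06). None of these 3 chains overlapped between MEFs and 2NG- cells. Lamb2 was 55.5 and 70.2 CPM in MEFs and 11.8, 10.6, and 7.32 CPM in 2NG- cells (log2 -2.69, SE 0.56, FDR 0.00029). Lama4 was 86.3 and 78.9 CPM against 9.49, 4.72, and 18.8 CPM (log2 -2.94, SE 0.72, FDR 0.0018).

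Of the MEF integrins, Itga5 was 64.0 and 86.6 CPM in MKOS MEFs and 23.7, 15.5, and 8.81 CPM in 2NG- cells (log2 -2.25, SE 0.48, FDR 0.00037), and Itga8 was 11.1 and 9.08 CPM against 0.714, 0, and 0 CPM (FDR 0.0072). Itgb1 was 263 and 297 CPM in MEFs and 219, 183, and 109 CPM in 2NG- cells, and its log2 change of -0.75 (SE 0.33) did not pass (FDR 0.091). Itgav, with 52.4 and 62.9 CPM in MEFs and 53.7, 44.3, and 23.4 CPM in 2NG- cells, did not pass either (log2 -0.54, SE 0.47, FDR 0.42). Itga5 was thus lower while its partner Itgb1 was not called at this stage.

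**Figure D2:**
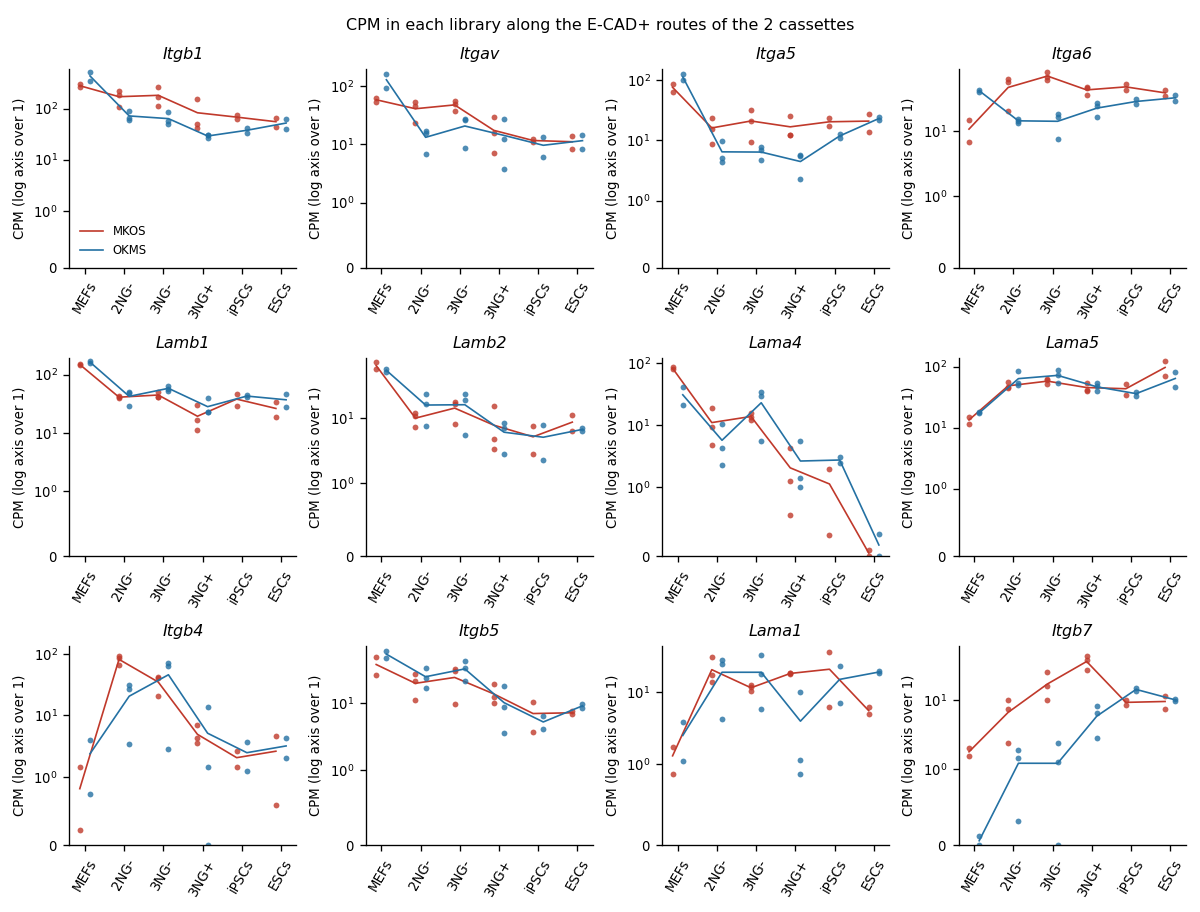
CPM of 12 members in each library (points; log axis above 1 CPM, linear below) and the mean of each condition (lines) along the E-CAD+ routes of MKOS (red) and OKMS (blue), from MEFs through 2NG-, 3NG-, and 3NG+ cells to iPSCs without doxycycline and TNG ESCs of the same cassette. Itgb4 is highest in the sorted NG- cells, Itga6 goes up in MKOS and down in OKMS cells from MEFs to 2NG- cells, and Itgb7 is above the OKMS libraries in every MKOS 3NG- library.

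On the OKMS route, E-CAD+ 2NG- cells differed from OKMS MEFs in 11 members. Lama1, Lama5, Itgb4, and Itgb7 rose (11.8% of the members, where 15.7% of all transcripts rose) and Itga5, Itga6, Itgav, Itgb1, Lama4, Lamb1, and Lamb2 fell (20.6%, where 13.5% of all fell). The median log2 change was -1.50 for the members, or -1.37 with genes without a read in a group set to their bound, and 0 for all transcripts.

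Itga5 was 98.9 and 125 CPM in OKMS MEFs and 4.43, 5.16, and 9.67 CPM in E-CAD+ 2NG- cells, a log2 change of -3.94 (SE 0.51, FDR 1.21e-07). Itgb1 was 352 and 517 CPM against 65.3, 88.6, and 61.0 CPM (log2 -2.49, SE 0.34, FDR 3.21e-07), and Itgav 91.9 and 162 CPM against 15.3, 17.1, and 6.91 CPM (log2 -3.19, SE 0.49, FDR 2.96e-06). All 3 had lost most of their MEF level, with no overlap between the groups. Itga6 was 40.6 and 43.6 CPM in OKMS MEFs and 14.1, 13.5, and 15.6 CPM in 2NG- cells, and fell by 1.42 on the log2 scale (SE 0.39, FDR 0.0053).

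Among the laminins, Lamb1 was 157 and 171 CPM in OKMS MEFs and 28.6, 47.7, and 50.9 CPM in E-CAD+ 2NG- cells (log2 -1.83, SE 0.29, FDR 3.70e-06). Lama5 was 17.1 and 17.8 CPM against 85.4, 50.3, and 54.9 CPM (log2 1.98, SE 0.40, FDR 0.00016). Both moved as in MKOS cells. Lama1 was 1.11 and 3.89 CPM against 27.6, 23.9, and 4.23 CPM (log2 2.92, SE 0.77, FDR 0.0035), and Lama4 was 21.0 and 40.8 CPM against 4.26, 10.6, and 2.26 CPM (log2 -2.43, SE 0.74, FDR 0.011). Lamb2 was 50.3 and 56.1 CPM against 16.2, 23.5, and 7.48 CPM (log2 -1.70, SE 0.55, FDR 0.017, and FDR 0.051 without the 7 libraries). In replicate 3, Lama1, Lama4, and Lamb2 were lower than in the other OKMS 2NG- libraries.

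Itgb4 was 0.742 and 4.01 CPM in OKMS MEFs and 31.0, 27.4, and 3.46 CPM in E-CAD+ 2NG- cells (log2 3.14, SE 1.13, FDR 0.032), where replicate 3 lay within the MEF range. Without the 7 libraries its log2 change was 3.63 (FDR 0.00042). Itgb7 had 1 read in the 2 OKMS MEF libraries and was 1.87, 0.322, and 1.41 CPM in 2NG- cells, a ratio of summed counts of 19.5 (95% exact counting interval 3.26 to 795, FDR 0.029). Keratinocyte markers summed to 50.5, 92.8, and 1.41 CPM in the 2NG- libraries and to 0 and 2.06 CPM in OKMS MEFs, so that Itgb4 and these markers were both lowest in 2NG- replicate 3; their part in the result was not tested. The Itgb4 call was lost without either library of OKMS MEFs or without 2NG- replicate 1 or 2 (FDR 0.063 to 0.22), the Itgb7 call without either MEF library or 2NG- replicate 1 or 3 (FDR 0.058 to 0.14), the Lama1 call without MEFs replicate 1 (FDR 0.075), the Lama4 call without MEFs replicate 2 or 2NG- replicate 3 (FDR 0.066 to 0.11), and the Lamb2 call without either MEF library or 2NG- replicate 3 (FDR 0.061 to 0.093). The number of members called was 7 without either library of OKMS MEFs.

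**Figure D3:**
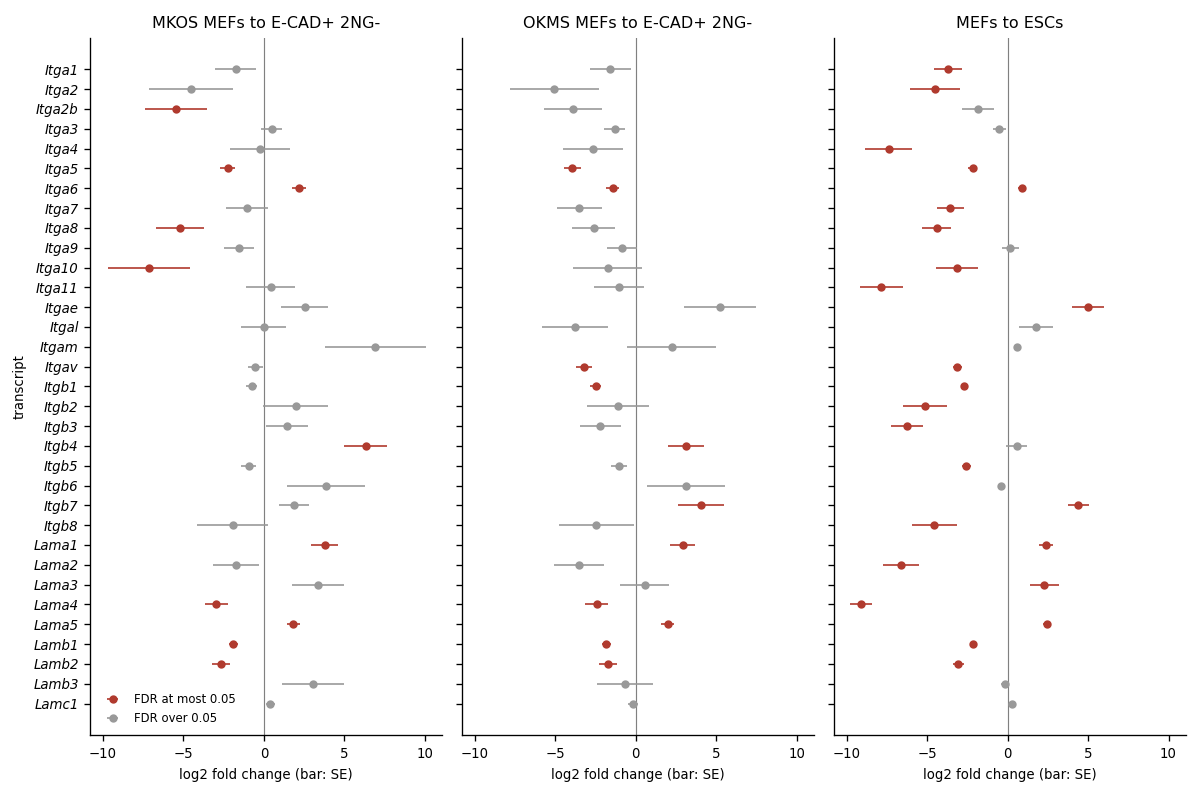
log2 fold change (points, with SE as bars) of members tested from MKOS MEFs to E-CAD+ 2NG- cells, from OKMS MEFs to E-CAD+ 2NG- cells, and from MEFs to ESCs; red marks an FDR of at most 0.05. Itga6 is at 2.15 in the MKOS panel and at -1.42 in the OKMS panel, and Itgam and Itgb6 have no bar in the ESC panel because no SE could be estimated.

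The difference between the cassettes in this step was tested directly, as the OKMS change minus the MKOS change. It passed for Itga6 (log2 -3.58, SE 0.59, FDR 0.00028) and Itgav (log2 -2.65, SE 0.69, FDR 0.037), both of which are laminin or RGD receptor subunits and moved further down, or down instead of up, in OKMS cells. These are 5.88% of the members, where 0.793% of all transcripts differed in this direction, and the median was -1.15 for the members and -0.02 for all transcripts. Itgb1 had a difference of -1.74 (SE 0.48, FDR 0.057), and for Itgb4 (-3.19, SE 1.57, FDR 0.37) and Itga5 (-1.68, SE 0.69, FDR 0.25) it was not called. For Lama5 it was 0.15 (SE 0.53, FDR 1.00).

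The Itga6 call held without any 1 library and without the 7 libraries (log2 -4.00, FDR 1.87e-06). The Itgav call was lost without any 1 of 7 of the 10 libraries (FDR 0.051 to 0.20), which were all 4 MEF libraries, MKOS 2NG- replicates 1 and 2, and OKMS 2NG- replicate 3, so that 1 member was then called. The starting MEFs entered this test: Itga6 was 6.86 and 14.6 CPM in the MEFs that carry MKOS, 40.6 and 43.6 CPM in those that carry OKMS, and 20.2 and 16.1 CPM in WT MEFs. The comparison of OKMS with MKOS MEFs itself gave a log2 difference of 1.96 for Itga6 (SE 0.46, FDR 0.062). In that comparison edgeR called 0 of 34 members, where 0.102% of all transcripts were called in either direction; 3 members had an unadjusted p below 0.05 and DESeq2 called 1.

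Between the E-CAD+ 2NG- cells of the cassettes, 4 members were lower in OKMS, among them Itga6, Itgav, and Itgb1, which is 11.8% of the members, where 2.84% of all transcripts were lower. Itga6 was 65.0, 56.7, and 20.7 CPM in MKOS and 14.1, 13.5, and 15.6 CPM in OKMS cells, and its log2 difference was -1.61 (SE 0.37, FDR 0.0046). Itgb1 was 219, 183, and 109 CPM against 65.3, 88.6, and 61.0 CPM (log2 -1.18, SE 0.31, FDR 0.017), and Itgav 53.7, 44.3, and 23.4 CPM against 15.3, 17.1, and 6.91 CPM (log2 -1.58, SE 0.45, FDR 0.027). No OKMS library reached the lowest MKOS library for any of these genes. Itgb4, at 85.1, 93.6, and 67.6 CPM against 31.0, 27.4, and 3.46 CPM, also did not overlap, and its log2 difference of -1.95 (SE 0.87) did not pass (FDR 0.21).

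These calls depended on single libraries. Without MKOS replicate 1 no member was called, and 1 was called without MKOS replicate 2, OKMS replicate 1, or OKMS replicate 3, namely Itga6, whose FDR without MKOS replicate 1 was 0.058. The Itgb1 call was lost without any of these 4 libraries (FDR 0.056 to 0.13), as was that of Itgav (FDR 0.052 to 0.17). Haematopoietic markers differed with the cassette and the replicate as well. Their summed level was 1653, 846, and 155 CPM in MKOS 2NG- cells and 266, 322, and 135 CPM in OKMS 2NG- cells. Fibroblast markers summed to 845, 445, and 711 CPM in MKOS and 77.0, 133, and 296 CPM in OKMS 2NG- cells, without overlap. The part of either list in these differences was not tested.

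In the 3NG- gate, Itga6, Itgb1, and Itgb7 were lower in OKMS, 8.82% of the members, where 1.38% of all transcripts were lower. Itga6 was 81.4, 69.9, and 62.2 CPM in MKOS and 18.5, 7.62, and 16.5 CPM in OKMS cells (log2 -2.20, SE 0.37, FDR 0.00037), a call that held without any 1 library. Itgb7 was 10.2, 15.9, and 25.4 CPM against 1.25, 0, and 2.35 CPM (log2 -3.67, SE 0.84, FDR 0.0096), and Itgb1 was 260.2, 170.1, and 114 CPM against 83.7, 49.8, and 57.0 CPM (log2 -1.41, SE 0.31, FDR 0.0066). All 3 MKOS libraries lay above all OKMS libraries for each gene. Itgb4, at 41.2, 43.1, and 20.9 CPM against 64.4, 70.9, and 2.83 CPM, overlapped widely (FDR 0.87). The Itgb7 call was lost without OKMS replicate 1 or 2 (FDR 0.062 and 0.074) and that of Itgb1 without MKOS replicate 1 or OKMS replicate 2 (FDR 0.066 and 0.12), which left 1 member without OKMS replicate 2. Haematopoietic markers summed to 1978, 1094, and 135 CPM in MKOS and 384, 367.5, and 29.2 CPM in OKMS E-CAD+ 3NG- cells. Fibroblast markers summed to 1003, 550, and 728 CPM and to 295.5, 293, and 169 CPM, respectively. The part of either list in these differences was not tested.

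Among Nanog-GFP+ 3NG+ cells only Itgb1 was called, lower in OKMS, which is 2.94% of the members, where 0.345% of all transcripts were lower. It was 157, 48.8, and 42.1 CPM in MKOS and 30.6, 30.1, and 26.3 CPM in OKMS cells (log2 -1.31, SE 0.32, FDR 0.036). Without MKOS replicate 1, the high library, the difference was -0.54 (FDR 0.53), and the call was also lost without any 1 OKMS library (FDR 0.093 or higher). In MKOS 3NG+ replicate 1 haematopoietic markers summed to 969 CPM, fibroblast markers to 600 CPM, and keratinocyte markers to 43.5 CPM. Each sum was the highest of the MKOS 3NG+ libraries, and the part of these markers in the result was not tested. Itgb7 was 44.0, 27.5, and 37.8 CPM in MKOS and 6.43, 2.80, and 8.30 CPM in OKMS cells, without overlap, and did not pass (log2 -2.38, SE 0.76, FDR 0.14).

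OKMS MEFs also gave rise to E-CAD- 2NG- cells, in which Lama1 rose and 9 members fell against OKMS MEFs, among them Itga2b, Itga3, Itga5, Itga6, Itga7, Itgav, Itgb1, and Lamb1. This is 2.94% of the members up, where 11.7% of all transcripts rose, and 26.5% down, where 10.1% of all fell. The median log2 change was -0.60 for the members, or -0.30 with genes without a read in a group set to their bound, and 0 for all transcripts.

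Lama1 was 1.11 and 3.89 CPM in OKMS MEFs and 44.2, 62.8, and 32.6 CPM in E-CAD- 2NG- cells, a log2 change of 4.15 (SE 0.81, FDR 0.00016), and these were the highest condition mean of this gene in the series. Itga3, a laminin-binding partner of Itgb1, was 11.7 and 18.2 CPM in MEFs and 0.949, 0, and 0.163 CPM in E-CAD- 2NG- cells (log2 -5.13, SE 0.80, FDR 7.17e-06). Itga7 was 7.98 and 11.3 CPM in MEFs and had 2 reads in the 3 E-CAD- 2NG- libraries, a ratio of summed counts of 72.0 (95% exact counting interval 19.6 to 600.2, FDR 0.0066). None of these groups overlapped.

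Itga5 (2.85, 12.4, and 12.1 CPM), Itgb1 (98.8, 75.9, and 89.7 CPM), and Itgav (13.3, 21.6, and 15.7 CPM) in E-CAD- 2NG- cells fell from their level in OKMS MEFs, with log2 changes of -3.69 (SE 0.51, FDR 7.27e-07), -2.31 (SE 0.34, FDR 2.16e-06), and -2.94 (SE 0.49, FDR 1.69e-05), respectively. Itga6 was 11.2, 12.0, and 25.3 CPM (log2 -1.42, SE 0.40, FDR 0.0074) and Lamb1 54.8, 61.8, and 50.5 CPM (log2 -1.59, SE 0.29, FDR 5.47e-05). These 5 members fell in E-CAD+ cells too; the comparisons share the OKMS MEF libraries.

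E-CAD+ and E-CAD- cells of OKMS reprogramming were set against each other over both NG- gates. In all, 3 members were higher in E-CAD+ cells, among them Lama5 and Itga3 (8.82% of the members, where 4.69% of all transcripts were higher) and Lama4 was lower (2.94%, where 2.39% of all were lower). In the order 2NG- and then 3NG-, Lama5 was 85.4, 50.3, 54.9, 89.3, 72.4, and 53.9 CPM in E-CAD+ cells and 32.8, 22.0, 14.8, 41.0, 36.3, and 21.5 CPM in E-CAD- cells, so that every E-CAD+ library lay above every E-CAD- library (log2 1.40, SE 0.24, FDR 7.67e-05). Of the members called here, Lama5 was thus the one that separated the 2 populations without overlap. Lama1, the other embryonic alpha chain, was not called and lay the other way on average. Its means were 46.5 and 31.3 CPM in E-CAD- 2NG- and 3NG- cells and 18.6 and 18.6 CPM in the E-CAD+ cells of these gates, and the libraries overlapped.

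Itga3 was 6.14, 5.80, 4.66, 13.8, 8.09, and 1.88 CPM in E-CAD+ cells and 0.949, 0, 0.163, 6.94, 3.84, and 1.91 CPM in E-CAD- cells (log2 2.39, SE 0.49, FDR 0.0012). Lama4 was 4.26, 10.6, 2.26, 34.0, 29.3, and 5.65 CPM against 31.7, 27.5, 17.4, 74.8, 52.3, and 61.5 CPM (log2 -1.76, SE 0.47, FDR 0.015). In both genes the groups overlapped, and E-CAD+ 3NG- replicate 3 was the lowest E-CAD+ library for Itga3. The Lama4 call was lost without E-CAD+ 2NG- replicate 3 (FDR 0.052), without E-CAD+ 3NG- replicate 3 (FDR 0.054), and without the 7 libraries (log2 -1.49, FDR 0.092). Fibroblast markers summed to a mean of 169 and 252 CPM in the E-CAD+ populations and 647.5 and 748.5 CPM in the E-CAD- populations, and keratinocyte markers to 48.2 and 61.8 CPM against 4.71 and 2.15 CPM; their part in these differences was not tested.

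**Figure D4:**
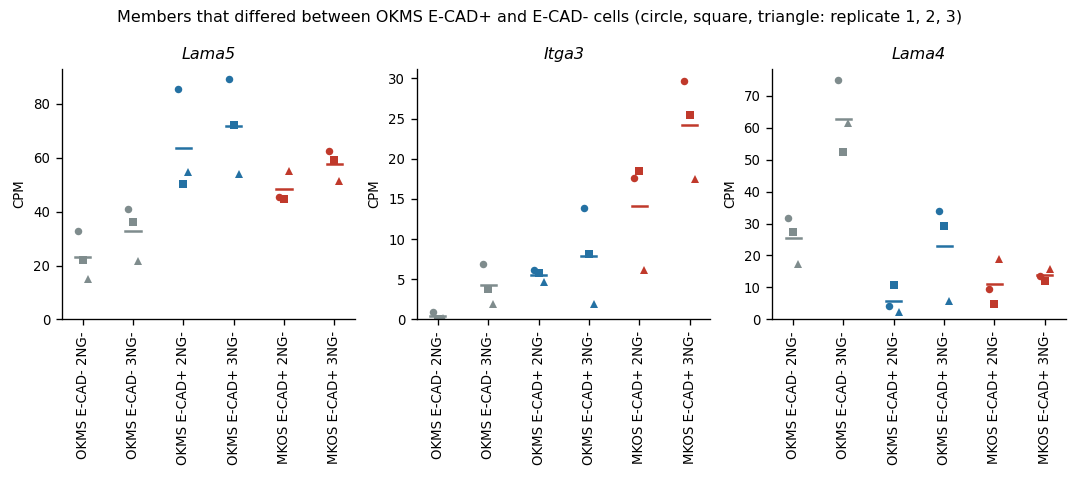
CPM of Lama5, Itga3, and Lama4, which differed between OKMS E-CAD+ and E-CAD- cells, by library (circles, squares, and triangles are replicates 1, 2, and 3; bars are means), in OKMS E-CAD- (gray), OKMS E-CAD+ (blue), and MKOS E-CAD+ (red) cells. Lama5 lies between 50.3 and 89.3 CPM in OKMS E-CAD+ cells and between 14.8 and 41.0 CPM in E-CAD- cells, and the triangle of OKMS E-CAD+ 3NG- is the lowest of its group in all 3 panels.

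From the 2NG- to the 3NG- gate, edgeR called 0 members in MKOS cells and 0 in OKMS E-CAD+ cells, where 0.39% and 0.0384% of all transcripts were called in either direction. At an unadjusted p below 0.05 there were 2 members in each, and DESeq2 called 0 in both.

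With the gain of Nanog-GFP, from 3NG- to 3NG+, 2 members fell in MKOS cells, among them Lamb1, which is 5.88% of the members, where 1.02% of all transcripts fell. Lamb1 was 41.1, 42.0, and 51.1 CPM in 3NG- and 30.1, 11.3, and 16.8 CPM in 3NG+ cells (log2 -1.06, SE 0.27, FDR 0.028), without overlap. Itgb4, at 41.2, 43.1, and 20.9 CPM against 3.58, 4.35, and 6.89 CPM, did not overlap either and did not pass (log2 -2.63, SE 0.92, FDR 0.13). The Lamb1 call was lost without any library but 3NG+ replicate 1 (FDR 0.076 to 0.25) and without the 7 libraries (FDR 0.052). No member was called without 3NG+ replicate 2, 3NG- replicate 1, or 3NG- replicate 2, and 1 without 3NG+ replicate 3 or 3NG- replicate 3. Without the 7 libraries, 5 members were called.

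In OKMS cells the same step lowered 6 members, among them Itgb4, Itgb5, Lama1, Lama4, and Lamb1, which is 17.6% of the members, where 3.21% of all transcripts fell. Itgb4 was 64.4, 70.9, and 2.83 CPM in 3NG- and 0, 13.99, and 1.43 CPM in 3NG+ cells (log2 -3.57, SE 1.04, FDR 0.030). Its 3NG- replicate 3 was at the 3NG+ level, so the groups overlapped. Keratinocyte markers summed to 67.0, 118, and 0.235 CPM in 3NG- and to 0.252, 21.7, and 0 CPM in 3NG+ cells. In these 2 populations they were high in the libraries where Itgb4 was high, and their part in this result was not tested. In OKMS E-CAD- 3NG- cells, however, Itgb4 was 43.9, 35.2, and 24.2 CPM while these markers summed to 1.49, 2.79, and 2.18 CPM. In OKMS E-CAD- 2NG- cells Itgb4 was 12.7, 20.3, and 0.978 CPM beside 6.26, 7.55, and 0.326 CPM of the markers. Lama1 was 17.7, 32.1, and 5.89 CPM against 0.883, 9.79, and 1.14 CPM (log2 -2.63, SE 0.72, FDR 0.021), where 3NG+ replicate 2 lay above 3NG- replicate 3. Lama4 was 34.0, 29.3, and 5.65 CPM against 5.55, 1.40, and 1.00 CPM (log2 -2.73, SE 0.73, FDR 0.018). Itgb5 was 33.5, 41.7, and 21.7 CPM against 8.70, 18.2, and 3.58 CPM (log2 -1.61, SE 0.47, FDR 0.029), and Lamb1 57.6, 53.1, and 64.0 CPM against 22.7, 39.2, and 22.9 CPM (log2 -0.89, SE 0.27, FDR 0.038). For the last 3 genes the groups did not overlap.

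Without the 7 libraries, which include 3NG- replicate 3 and 3NG+ replicate 2, 10 members were called, with a log2 change of -6.30 for Itgb4 (FDR 6.53e-06) and -4.31 for Lama1 (FDR 2.67e-05). In contrast, each of these 5 named calls was lost without 3 to 5 of the 6 libraries (FDR 0.058 to 0.19), and no member was called without 3NG- replicate 2 or 3NG+ replicate 3, 1 was called without 3NG- replicate 1 or 3NG+ replicate 1, and a fit to the 6 libraries alone called none. Haematopoietic markers summed to 750 CPM in 3NG+ replicate 2 and to 69.5 and 37.2 CPM in the other 3NG+ libraries, and that library had the fewest reads of the series, 1429717; their part in the result was not tested.

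From 3NG+ cells to iPSCs without doxycycline, edgeR called 0 members for either cassette, where 2.14% of all transcripts were called in either direction for MKOS and 0.614% for OKMS. There were 8 MKOS and 5 OKMS members with an unadjusted p below 0.05, and DESeq2 called 2 and 0. Itgb7 stood at 44.0, 27.5, and 37.8 CPM in MKOS 3NG+ cells, its highest condition, and at 10.2 and 8.34 CPM in MKOS iPSCs.

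TNG MKOS and TNG OKMS ESCs differed from the iPSCs of both cassettes only in Lama4, 2.94% of the members, where 1.13% of all transcripts were lower. Lama4 was 0.311, 1.95, 2.47, and 3.03 CPM in the iPSC libraries and 0.0978, 0, 0, and 0.328 CPM in the ESC libraries (FDR 0.043), so the lowest iPSC library overlapped the ESCs. This call was lost without any 1 of 6 of the 8 libraries, all but MKOS iPSCs replicate 1 and TNG OKMS ESCs replicate 2 (FDR 0.054 to 0.37), and in a fit to the 8 libraries alone.

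In 2i medium, which blocks MEK and GSK3, iPSCs had more Lamb2 (2.94% of the members, where 1.89% of all transcripts were higher) and less Itga1 (2.94%, where 2.45% of all were lower). Lamb2 was 7.47, 2.84, 7.84, and 2.32 CPM without doxycycline and 22.9, 18.5, 16.2, and 10.0 CPM in 2i, without overlap (log2 1.57, SE 0.46, FDR 0.041). Itga1 was 0.726, 0.355, 1.65, and 1.96 CPM without doxycycline and had no read in the 4 libraries in 2i, at least 8.03-fold lower against 3 reads over the group (FDR 0.031). Either call was lost without any 1 of 6 of the 8 libraries (FDR 0.050 to 0.21), and a fit to the 8 libraries alone called none. No member was called without OKMS 2i replicate 1 or 2, and 1 without MKOS -dox replicate 2, either MKOS 2i library, or OKMS -dox replicate 1. Itga1 was kept without MKOS -dox replicate 2 or OKMS -dox replicate 2, and Lamb2 without replicate 1 of either -dox clone.

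D6 iPSCs and E14 ESCs entered no comparison of their own with the other lines here. Itga6 was 47.8 and 38.3 CPM in D6 iPSCs and 41.1 and 48.8 CPM in E14 ESCs, Lama5 was 34.7 and 37.1 CPM and 60.9 and 55.5 CPM, and Itgae was 19.6 and 13.0 CPM and 10.1 and 6.81 CPM, in D6 and E14 cells. Itgb3 was 1.35 and 10.4 CPM in the 2 D6 libraries, so that a single library held its highest level among iPSCs.

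Leukocyte integrins were low and uneven. Itgb2, the beta subunit of leukocyte integrins, was 5.81, 1.18, and 0.677 CPM in MKOS 2NG- cells and 4.42, 0.593, and 0 CPM in MKOS 3NG+ cells. Itgam, an alpha subunit of macrophages and neutrophils that pairs with it, was 5.81, 0.295, and 0.406 CPM and 4.42, 0, and 0 CPM in the same libraries. In these 2 populations replicate 1 was the highest for both genes, and haematopoietic markers were highest in replicate 1 too, at 1653 CPM in MKOS 2NG- cells and 969 CPM in MKOS 3NG+ cells, against 155 and 77.8 CPM in replicate 3. In MKOS 3NG- cells Itgam was 3.24, 3.46, and 0.228 CPM, highest in replicate 2, where these markers summed to 1978, 1094, and 135 CPM. In MKOS 3NG- and OKMS 3NG+ cells Itgb2 was likewise highest where these markers were highest. This was not so in the other OKMS populations. In OKMS E-CAD+ 3NG- cells Itgb2 was 3.302, 0, and 3.061 CPM beside 384, 367.5, and 29.2 CPM of the markers. In OKMS E-CAD- 2NG- cells it was 1.33, 0, and 1.47 CPM, lowest where the markers were highest. The highest mean of Itgam, 2.86 CPM, was in OKMS E-CAD- 2NG- cells, at 4.17, 3.09, and 1.30 CPM beside 766, 962, and 156 CPM of the markers, and their part in these values was not tested. Itgal was at most 4.88 CPM in any library. Itga2b, the platelet integrin subunit, was 5.43 and 2.44 CPM in MKOS MEFs and had 2 reads in MKOS 2NG- cells (ratio of summed counts 53.7, 95% exact counting interval 14.3 to 453, FDR 0.034), and it had no read in OKMS E-CAD- 2NG- cells, at least 21.4-fold lower than in OKMS MEFs (FDR 0.015). Platelet markers summed to 16.5 CPM in MKOS MEFs, to 30.7 CPM in those of OKMS, and to 1.03 to 6.04 CPM in the sorted populations, and their part in the Itga2b values was not tested. Both calls were lost without the 7 libraries (FDR 0.092 and 0.054) and without 3 and 2 single libraries, respectively: MKOS MEFs replicate 1 and MKOS 2NG- replicates 2 and 3 (FDR 0.11 to 0.13), and E-CAD- 2NG- replicates 1 and 3 (FDR 0.051 and 0.058). The MKOS call was also lost with no filter on low counts (FDR 0.054). Itga10 was 0.819 and 4.43 CPM in MKOS MEFs and had no read in MKOS 2NG- cells, at least 21.0-fold lower (FDR 0.034, a floor of 3 reads over the group). This call was lost without the 7 libraries (FDR 0.068), with no filter (FDR 0.061), and without 4 of the 5 single libraries, all but MKOS MEFs replicate 1 (FDR 0.089 to 0.14), and DESeq2 gave it no adjusted p. Itga2, Itga10, and Itgb8, called in MEFs against ESCs, were at most 2.28, 4.43, and 3.59 CPM in any library. The call of Itgb8 was lost without OKMS MEFs replicate 1, that of Itga2 without replicate 2 of any MEF line, and that of Itga10 without any 1 of 8 of the 14 libraries, among them MKOS and OKMS MEFs replicate 2 and WT MEFs replicate 1 (FDR up to 1.00).

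Other genes of cell and matrix attachment were counted on 3 lists. Of 16 tested basement membrane partners, 5 rose and 9 fell from MEFs to ESCs, where 29.6% of all transcripts rose and 30.4% fell, among them the laminin-binding nidogen Nid1, with means of 215 and 22.1 CPM (log2 -3.28, SE 0.25, FDR 7.55e-15), and the basement membrane collagens Col4a1 (94.4 and 3.59 CPM) and Col4a2 (64.2 and 1.16 CPM). From MEFs to E-CAD+ 2NG- cells, where 15.0% of all transcripts rose and 12.0% fell in MKOS and 15.7% rose and 13.5% fell in OKMS, 0 rose and 5 fell in MKOS, including Dag1, a laminin receptor that is no integrin (40.9 and 9.50 CPM, FDR 7.91e-05), and 1 rose and 7 fell in OKMS, including Nid1 (312 and 13.7 CPM, FDR 3.50e-10) and perlecan, Hspg2 (163 and 37.7 CPM, FDR 1.13e-05). For Nid1 the change differed between the cassettes by -3.83 on the log2 scale (SE 0.59, FDR 0.00012), and its level in 2NG- cells was 115.5 CPM in MKOS and 13.7 CPM in OKMS (FDR 1.94e-06). Col18a1 was higher in OKMS than in MKOS 2NG- cells (64.0 against 15.2 CPM, FDR 7.87e-06).

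Of 22 tested integrin ligands outside the basement membrane, 1 rose and 20 fell from MEFs to ESCs, and 0 rose and 13 fell in the MKOS step and 0 rose and 19 fell in the OKMS E-CAD+ step to 2NG- cells. The collagen Col3a1 went from 2084 to 135 CPM in the MKOS step (FDR 6.61e-08) and from 997 to 41.6 CPM in the OKMS step (FDR 1.09e-08), and tenascin C, Tnc, from 262 to 19.9 CPM and from 451 to 4.38 CPM. Icam1, also on this list, is a marker of the sort. Of 47 tested adaptors and adhesion proteins, 5 rose and 29 fell from MEFs to ESCs, 7 rose and 14 fell in the MKOS step, and 4 rose and 22 fell in the OKMS step. Beside the same shares of all transcripts (29.6% up and 30.4% down, 15.0% and 12.0%, and 15.7% and 13.5%), the 7 of 47 that rose in the MKOS step are near the share of all. Vcl, which links integrins to actin, fell from 180 to 50.2 CPM in MKOS (FDR 3.06e-05) and from 317 to 31.4 CPM in OKMS (FDR 2.46e-09), Tln1, which switches integrins on, fell from 149 to 22.2 CPM in OKMS (FDR 1.13e-09), and the tetraspanin Cd9, a partner of integrins in the membrane, rose from 188 to 1217 CPM in MKOS (FDR 1.59e-06). The median log2 change in the MKOS and OKMS steps was -0.95 and -1.76 for basement membrane partners, -2.60 and -4.08 for other ligands, and -0.09 and -1.11 for adaptors.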

How the data were processed

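RNA of 48 libraries was sequenced by the STRT method, which reads 5′ ends. The authors' deposited counts of reads per transcript are not normalized, and per the file headers a read with several positions was given to the most 5′ exonic one. The labels' processing notes name Bowtie 0.12.7 and mm10, whereas the methods of the study name mm9; the file's positions of forward-strand members lie 100 or 101 bases before the RefSeq start in GRCm38 for 10 of 13 starts compared. No molecular identifiers are stated, so that counts can include PCR copies.

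CPM was computed over the 24264 transcript rows, leaving out 104 spike-in rows and 1554 repeat types, which took 14.2% to 33.1% of the reads. Because only 5′ ends are read, CPM was not scaled by length. The counts of all 48 libraries were fitted with edgeR 4.0.16 in R 4.3.3 (TMM, its default filter by condition, 1 coefficient for each of 20 conditions, quasi-likelihood test), and 15630 transcripts were tested in 18 comparisons with Benjamini-Hochberg adjustment over all of them. FDR means this adjusted p, and at most 0.05 was called. The scripts were tested on simulated counts. Alternatives were DESeq2 1.42.0, its size factors, no filter, the libraries compared alone, 7 sorted libraries left out, a replicate block, and each library left out in turn. Ratios of summed counts with few reads have exact binomial intervals.

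Conditions and replicate numbers come from the labels, which do not say that replicates are separate cultures or animals, so p-values measure the spread between these libraries. The labels' culture protocol gives 10 or 15 days, their design text day 10. A member is given by library where it was called in a comparison and reached a mean of 5 CPM in a condition; other members are given by range, except Itgb6, Lamb3, Itgb2, Itgam, Itga2b, and Itga10, given by library after their values were seen. A member that enters the counts, shares, and medians is not reported here by itself. The family, and so its members, and the lists were chosen with earlier results of these data known, although the rule for a member reads only its symbol. Tables were made with Python 3.11.15 and pandas 2.3.3 and figures with Matplotlib 3.10.9.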

Additional observations from a re-analysis of the deposited data

Results flagged for a closer look

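The change from MEFs to E-CAD+ 2NG- cells differed between the cassettes for 2 members by a test of the difference itself. For Itga6 the log2 change in OKMS minus that in MKOS was -3.58 (edgeR quasi-likelihood test, FDR 0.00028): all 3 MKOS 2NG- libraries were above both MKOS MEF libraries and all 3 OKMS 2NG- libraries were below both OKMS MEF libraries. For Itgav the difference was -2.65 (FDR 0.037), with all 3 OKMS 2NG- libraries below both OKMS MEF libraries and an overlap of the MKOS groups. With other size factors, DESeq2, no filter on low counts, the compared libraries alone, a replicate block, or 7 sorted libraries left out, the FDR of Itga6 was at most 0.011 and that of Itgav at most 0.039. Without any 1 library it was at most 0.016 for Itga6, and for Itgav it passed 0.05 without 7 of the 10 libraries (0.051 to 0.20). The starting levels enter this test: Itga6 was 6.86 and 14.6 CPM in MKOS MEFs and 40.6 and 43.6 CPM in OKMS MEFs. Between the 2NG- cells of the cassettes its log2 difference was -1.61.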

How the results depend on the processing

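The 83 calls of a member in a comparison kept their direction under every alternative. With DESeq2's size factors all 83 passed, with its Wald test 79 of the 80 to which it gave an adjusted p, with no filter on low counts 80 of 83, without the 7 sorted libraries 76, with a replicate block 81, and with the compared libraries alone 66 of 80; leaving out 1 library at a time ended 131 of 703. In all, 48 of the 83 passed throughout.

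Counts of members called moved by over 1.5 times as follows. With DESeq2's test there were 1 instead of 0 for OKMS against MKOS MEFs, 4 instead of 1 between the 3NG+ cells, 4 instead of 2 from MKOS 3NG- to 3NG+, 2 instead of 0 from MKOS 3NG+ to iPSCs, and 6 instead of 2 for 2i. Without the filter, which raises the transcripts tested from 15630 to 19768, these became 2, 5, 6, 1, and 5, the cassette difference in change 5, 3NG- cells 5, OKMS 2NG- to 3NG- 1, and OKMS 3NG+ to iPSCs 1. Without the 7 libraries the cassette difference in change gave 4, the MEFs 1, 3NG+ cells 3, MKOS and OKMS 3NG- to 3NG+ 5 and 10, MKOS and OKMS 3NG+ to iPSCs 2 and 1, and 2i 5. With the compared libraries alone the MEFs gave 3, MKOS and OKMS 3NG- to 3NG+ 5 and 0, MKOS 3NG+ to iPSCs 1, iPSCs to ESCs 0, and 2i 0. The cause was not tested.

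Leaving out single libraries gave 7 to 10 members for OKMS MEFs to E-CAD+ 2NG-, 1 to 3 for the cassette difference in change, 0 to 4 for 2NG- cells, 1 to 4 for 3NG- cells, 0 to 1 for 3NG+ cells, 0 to 3 and 0 to 6 for MKOS and OKMS 3NG- to 3NG+, 0 to 1 for either 3NG+ to iPSCs and for iPSCs to ESCs, and 0 to 2 for 2i.

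Same-numbered sorted libraries were weakly alike: of 84 same-numbered pairs of sorted conditions 21 had a correlation of deviations over 0.1 (mean 0.0754). Of 168 differently numbered pairs 2 had (mean -0.0376), and 21 of 24 sorted libraries were closest to their own number. In the other conditions 10 of 132 same-numbered and 6 of 132 differently numbered pairs were over 0.1. Haematopoietic markers were also lowest in replicate 3 of every sorted population. Sorted libraries with the same number thus shared part of their deviations, whereas the labels do not say that they belong together. The main fit has no term for the numbers, so its p-values do not take this into account. A replicate block gave 1 instead of 0 members for OKMS against MKOS MEFs, 2 instead of 1 for 3NG+ cells, 5 instead of 2 for MKOS 3NG- to 3NG+, and 1 instead of 0 for MKOS 3NG+ to iPSCs, and ended 2 calls, among them that of Itga2b from MKOS MEFs to 2NG-.

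Depth limits the low members: 3 reads were up to 2.10 CPM, and values of Itgae, Itgb2, Itga4, or Lama3 near it rest on a few reads.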
